A study of Apis mellifera with 3 samples.

Results

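Transcripts of immune recognition and signalling genes of the honeybee were followed here in RNA recorded as coming from hypopharyngeal glands, the head glands that make royal jelly. Members were the transcript sequences whose best protein match carries the words peptidoglycan, beta-1,3-glucan, toll, relish, dorsal, cactus, domeless, hopscotch, eater, Dicer or Argonaute, with toll-interacting protein left out. The rule uses names and no measured value. It found 29 of 21441 sequences, which match 24 proteins. No match carried the words relish, domeless or eater. As background, insects meet microbes with receptors that bind the cell walls of bacteria and fungi, and with the Toll, Imd and JAK/STAT pathways that carry the alarm to the nucleus. RNA interference cuts the RNA of viruses.

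The samples were 3 pools of 30 worker bees of Apis mellifera carnica Pollmann, labelled winter (3 days after emergence), spring (6 days) and retired (9 days). The days are as the labels give them, and whether they are the bees' ages at collection could not be checked. The bees were full sisters by instrumental insemination of queens with semen of 1 drone. Each pool gave 1 library, so no difference here has a replicate check, no p-value is given, and season, task and labelled age cannot be told apart. The protocol names glands and the design text pooled heads, so it is not certain that only glands were sequenced. Pooling over bees and tissue also means that fewer cells of a type and less RNA per cell cannot be told apart.

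The libraries held 3.85 M (winter), 3.29 M (spring) and 3.18 M (retired) uniquely mapped reads. A level is given in RPKM, which is reads per kilobase of sequence scaled to the library total, so levels of different sequences can be compared. A difference is the ratio of reads per library total, with an exact 95% interval from the read counts. Such an interval covers counting error alone, compares 2 libraries and not 2 kinds of bee, and can be too narrow because PCR copies are not independent molecules. Of the 29 members, 19 had at least 50 reads over the 3 libraries, each with a different protein match, and 10 had fewer.

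The names cover more than immunity. Of the 29, 2 sequences match LysM and putative peptidoglycan-binding domain proteins, 1 matches the dorsal-ventral patterning protein Sog, which in flies binds growth factors of the BMP family, and 2 match an evolutionarily conserved signalling intermediate in Toll pathway (ECSIT), a protein that in mammals also serves in mitochondria. They are kept as the rule found them.

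Immune recognition and signalling genes were sparse messages. All members together took 0.138% of the winter reads (Wilson interval 0.134 to 0.141%), 0.112% of the spring reads (0.108 to 0.116%) and 0.108% of the retired reads (0.105 to 0.112%). Among the 19 members with at least 50 reads the median level was 18.7 RPKM in winter bees, 14.9 in spring bees and 14.5 in retired bees. Over all 12402 sequences with at least 50 reads the medians were 28.0, 24.1 and 23.5 RPKM, and 5, 4 and 6 of the 19 members lay above them. The highest member, a toll-like receptor 13-like match (TC15726), reached 174 RPKM in the winter library, and the lowest of the 19, an argonaute 3 match, stayed between 1.81 and 2.62 RPKM.

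**Figure D1:**
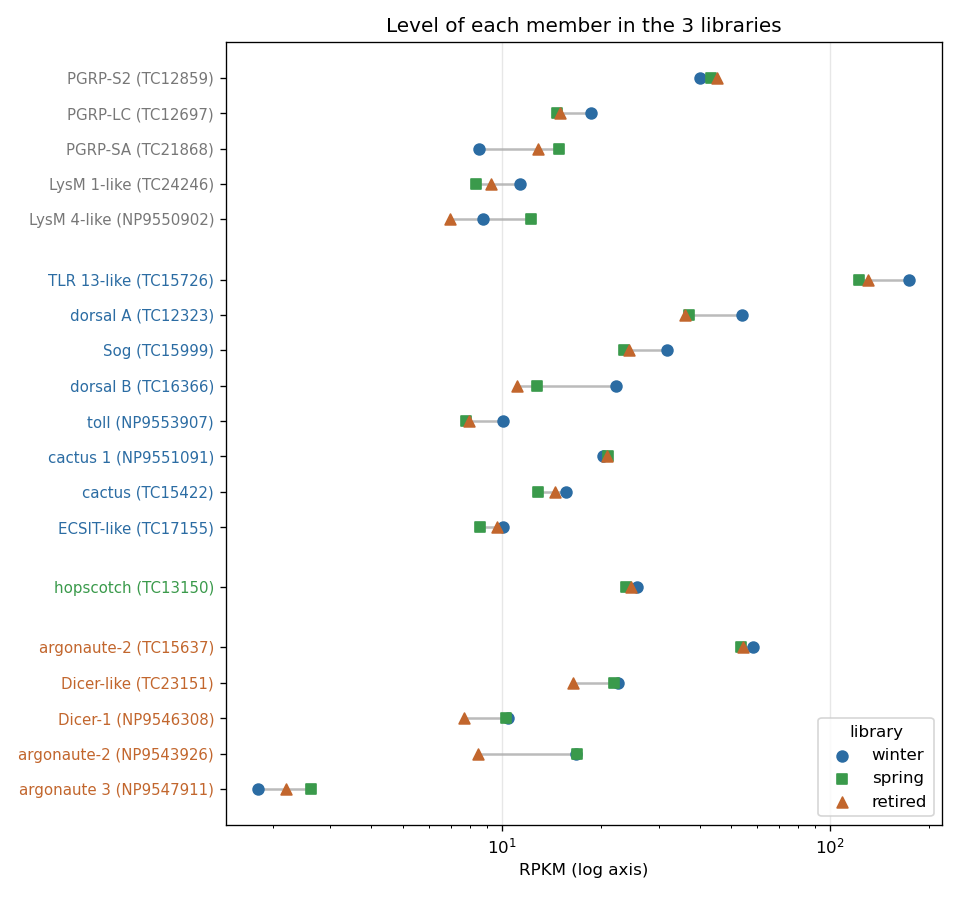
Level of the 19 members with at least 50 reads, in RPKM on a log axis, with 1 point per library (circle winter, square spring, triangle retired) and label colours for recognition proteins (grey), Toll pathway (blue), JAK/STAT (green) and RNA interference (orange). The winter point is the highest of the 3 for the toll-like receptor 13-like match (174 RPKM) and both dorsal sequences, and the retired point is the lowest for both Dicer sequences and for the argonaute-2 match NP9543926 (8.44 RPKM).

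Recognition proteins bind fragments of microbial walls. The 8 members grouped here by name include the LysM matches, and 5 of the 8 had at least 50 reads. PGRP-S2 (TC12859, symbol Pgrp-s2), a short peptidoglycan-recognition protein, was the most abundant of them with 40.1 RPKM in winter bees, 43.3 in spring bees and 45.1 in retired bees. These rest on 139, 128 and 129 reads, and the interval of every ratio included 1. With ratios scaled to a median of 1 over all sequences, it was 1.29-fold higher in spring (1.01 to 1.65) and 1.35-fold higher in retired bees (1.05 to 1.73) than in winter bees. PGRP-LC (TC12697), whose fly counterpart is a membrane receptor of the Imd pathway, stood at 18.7, 14.7 and 15.0 RPKM in the same order. Its winter level was the highest, but the ratio of spring over winter, 0.788, had an interval of 0.565 to 1.09.

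PGRP-SA (TC21868, listed under the symbol PGRP-S3) is a secreted receptor that in flies acts before Toll. It stood at 8.51 RPKM in winter bees, 14.9 in spring bees and 12.9 in retired bees, on 28, 42 and 35 reads. It was 1.76-fold higher in the spring than in the winter library (1.06 to 2.94), and it was the 1 member of 19 whose interval lay above 1 in that comparison. Over all sequences 7.18% of intervals lay above 1 there, so 1 of 19 is no more than the background. In the retired over the winter library its ratio was 1.51 (0.895 to 2.58), and 1.82 (1.07 to 3.10) with ratios scaled to a median of 1.

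The LysM matches stood at 11.3, 8.31 and 9.24 RPKM (TC24246) and at 8.76, 12.2 and 6.94 RPKM (NP9550902) in the winter, spring and retired library. All their intervals included 1. The remaining 3 recognition sequences were barely read. A beta-1,3-glucan-binding protein match (NP9551173), named for the fungal sugar it binds, had 10, 5 and 11 reads. A sequence with the symbol B-gluc1 (TC12706) had 368, 236 and 279 reads. It is no member, because its match carries another name, and it is given further below. A PGRP-LB match (NP9547931) had 3 winter, 0 spring and 3 retired reads, where 0 reads allow up to 1.54 RPKM. A further fragment of PGRP-LC (TC23978) had 1, 3 and 0 reads.

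In the Toll pathway a receptor at the cell surface leads to the breakdown of Cactus, which frees the NF-kappa-B factor Dorsal to enter the nucleus. All members of this group with at least 50 reads and an interval away from 1 were highest in the winter library. They were the toll-like receptor 13-like match, the 2 main dorsal sequences and Sog, 4 of the 8 with at least 50 reads. The 2 dorsal sequences belong to the same gene, and Sog is among the names that cover more than immunity. Over all sequences 33.4% of intervals lay below 1 in spring over winter and 33% in retired over winter. Scaled to a median ratio of 1, these shares were 13.2% and 12.8%, and the interval of Sog then included 1 in both comparisons. Neither cactus sequence had an interval away from 1.

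The toll-like receptor 13-like match (TC15726) stood at 174 RPKM in winter bees, 123 in spring bees and 130.0 in retired bees, from 1487, 893 and 915 reads. It was 1.42-fold lower in the spring than in the winter library (1.31 to 1.55) and 1.34-fold lower in the retired library (1.23 to 1.46), with an interval across 1 between spring and retired. Its name is uncertain, because the deposited orthology column puts a G protein-coupled receptor with leucine-rich repeats ahead of a toll-like receptor for it. The match named protein toll (NP9553907) was far less abundant at 10.05, 7.78 and 7.95 RPKM. Its ratios to winter, 0.774 in the spring (0.578 to 1.03) and 0.791 in the retired library (0.590 to 1.06), had intervals that included 1.

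Dorsal was read from sequences matching its isoforms A and B, both of the gene Dl. Isoform A (TC12323) stood at 53.8 RPKM in winter bees, 37.1 in spring bees and 36.2 in retired bees. It was 1.45-fold lower in the spring (1.25 to 1.68) and 1.48-fold lower in the retired library (1.28 to 1.73) than in the winter library. Isoform B (TC16366) stood at 22.2, 12.8 and 11.1 RPKM in the same order. It was 1.73-fold lower in the spring (1.44 to 2.10) and 1.99-fold lower in the retired than in the winter library (1.63 to 2.44). Between spring and retired the intervals of both included 1.

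With the reads of all 4 Dl sequences summed, the gene had 855 winter, 466 spring and 421 retired reads. In RPM, which is RPKM without the division by length, that is 222 in winter bees, 142 in spring bees and 133 in retired bees. The sum was 1.57-fold lower in the spring (1.40 to 1.76) and 1.68-fold lower in the retired library (1.49 to 1.89). A short isoform B sequence (TC17095) also had most of its few reads in the winter library, 21, 7 and 3, and a fragment of isoform A (CK629733) had 1, 0 and 2. The files count uniquely mapped reads, so reads that map to more than 1 sequence, as parts common to both isoforms could give, are not in these numbers. The covered fraction was 0.386 to 0.521 for the 2 main dorsal sequences and at most 0.370 for the 2 short ones. A second dorsal-type protein, matched as embryonic polarity protein dorsal (TC19320), had only 9, 4 and 6 reads.

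Cactus holds Dorsal back in the cytoplasm. The cactus 1 sequence (NP9551091, symbol cact1) stood at 20.3 RPKM in winter bees, 21.0 in spring bees and 20.9 in retired bees. Another cactus match (TC15422) stood at 15.7, 12.8 and 14.5 RPKM. No interval of either excluded 1 in any comparison, although each rested on at most 90 reads in a library, so differences up to about the interval of cactus 1 in spring over winter (0.752 to 1.42) were not detectable. Sog (TC15999) was highest in the winter library at 31.9 RPKM, against 23.5 and 24.4, which is 1.36-fold lower in the spring (1.15 to 1.60) and 1.31-fold lower in the retired library (1.11 to 1.54). The ECSIT match TC17155 stood at 10.04, 8.54 and 9.67 RPKM, with intervals that included 1, and TC20172 had 0 winter, 1 spring and 0 retired reads.

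**Figure D2:**
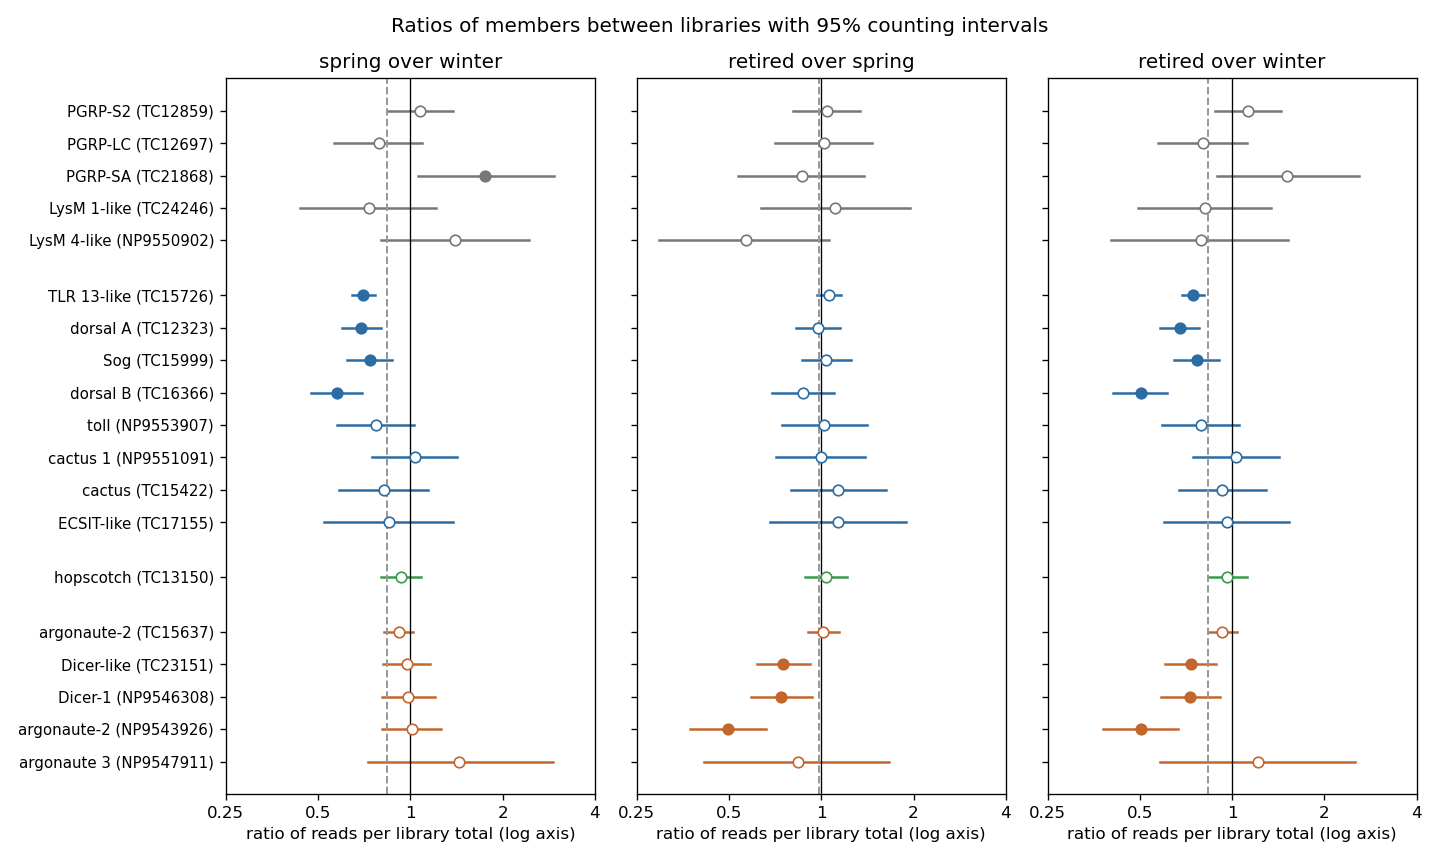
Ratio of reads per library total for the 19 members in each comparison, on a log axis, with exact 95% counting intervals (filled points have an interval without 1, the dashed line is the median ratio of all sequences with at least 50 reads, colours as for the levels). Both dorsal sequences lie left of the dashed line in both comparisons with the winter library, and the argonaute-2 match NP9543926 is the leftmost RNA interference point in both comparisons with the retired library (ratios 0.497 and 0.504).

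JAK/STAT signalling runs from a cytokine receptor through the kinase Hopscotch to a STAT transcription factor. Hopscotch (TC13150) was the sole member of this pathway and stood at 25.7 RPKM in winter bees, 23.9 in spring bees and 24.8 in retired bees. On 412, 328 and 328 reads, its ratio to winter was 0.932 in the spring (0.803 to 1.08) and 0.964 in the retired library (0.831 to 1.12). No library stood apart for it beyond counting error.

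RNA interference begins with Dicer, which cuts double-stranded RNA into short pieces, and ends with Argonaute, which uses those pieces to find and cut matching RNA. Of 8 member sequences 5 had at least 50 reads. In spring over winter none of the 5 intervals excluded 1, while 7.18% of all sequences lay above and 33.4% below. Scaled to library totals, both main Dicer sequences and 1 of the argonaute sequences were lower in the retired library than in either other library. Of all sequences, 10.4% had an interval below 1 for the retired library against spring, and 33% against winter. Scaled to a median ratio of 1, the Dicer intervals against winter included 1. The ratios were then 0.877 for Dicer-1 (0.703 to 1.09) and 0.879 for the Dicer-like sequence (0.724 to 1.07).

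The Dicer-1 sequence (NP9546308, symbol Dcr-1) stood at 10.5 RPKM in winter bees, 10.3 in spring bees and 7.64 in retired bees. It was 1.35-fold lower in the retired than in the spring library (1.07 to 1.70). A Dicer-like sequence (TC23151), matched best in Apis florea, stood at 22.5, 21.9 and 16.5 RPKM. It was 1.33-fold lower in the retired than in the spring library (1.09 to 1.63). In retired over winter the ratio was 0.731 for Dicer-1 (0.586 to 0.910) and 0.733 for the Dicer-like sequence (0.603 to 0.888).

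Argonaute sequences with the same description differed in pattern. The more abundant argonaute-2 match (TC15637, gene entry LOC411577) stood at 58.3, 53.4 and 54.2 RPKM (winter, spring, retired), and all its intervals included 1. The other argonaute-2 match (NP9543926) stood at 16.8 and 17.0 RPKM in the winter and spring libraries and at 8.44 in the retired library, from 178, 154 and 74 reads. It was 2.01-fold lower in the retired than in the spring library (1.51 to 2.69) and 1.99-fold lower than in the winter library (1.51 to 2.64). Among the 19 members with at least 50 reads it was the 1 past 2-fold in any comparison, and it sits on that threshold. The reference used here does not settle which of these sequences is the honeybee's Argonaute-1 or Argonaute-2 gene. Argonaute 3 (NP9547911), which in flies serves the piRNA pathway of the germ line, had 17, 21 and 17 reads. The other 3 sequences, fragments matching Dicer and argonaute-2, had at most 9 reads in a library, and 1 of them (DB740668, Dicer-1) had 1 winter read and 0 in both others.

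The counts of members are given beside those of all sequences. At least 2-fold higher in spring over winter were 0 of 19 members and 1.98% of all 12402 sequences, and at least 2-fold lower were 0 of 19 and 4.34% (6.31% in either direction). Intervals below 1 were found for 4 of 19 members, 21.1%, against 33.4% of all sequences. Scaled to a median ratio of 1, 3 of 19 lay below, against 13.2%, and 2 above, against 16.1%. In retired over winter, 0 of 19 members and 1.23% of all sequences were at least 2-fold higher, and 0 and 5.21% were at least 2-fold lower (6.43% in either direction). Intervals below 1 were found for 7 of 19 members there, 36.8%, against 33.0% of all sequences, and intervals above 1 for 0 of 19, against 5.47%. Scaled to a median ratio of 1, 4 of 19 lay below, against 12.8%, and 2 above, against 14.5%. In retired over spring, 1 of 19 members and 1.87% of all sequences were at least 2-fold lower, and 0 and 1.83% were at least 2-fold higher (3.7% in either direction). Intervals below 1 were found for 3 of 19, 15.8%, against 10.4%, and intervals above 1 for 0 of 19, against 8.26%.

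The median log2 ratio of the 19 members was -0.12 in spring over winter, against -0.26 for all sequences and -0.20 for the 8284 with a protein match. It was -0.31 in retired over winter, against -0.26 and -0.22, and 0.02 in retired over spring, against -0.03 and -0.04. Scaled to library totals, 13 of 19 members and 73.2% of all sequences had a ratio below 1 in spring over winter, 15 of 19 and 76.5% in retired over winter, and 9 of 19 and 53.9% in retired over spring. Scaled to a median ratio of 1, both dorsal sequences and the toll-like receptor 13-like match kept intervals below 1 in spring and in retired over winter, while Sog lost its interval in both and both Dicer sequences lost theirs in retired over winter. The intervals of all 3 RNA interference sequences in retired over spring stayed below 1 under every scaling tried. The 3 comparisons share libraries in pairs, so they are not independent of each other.

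**Figure D3:**
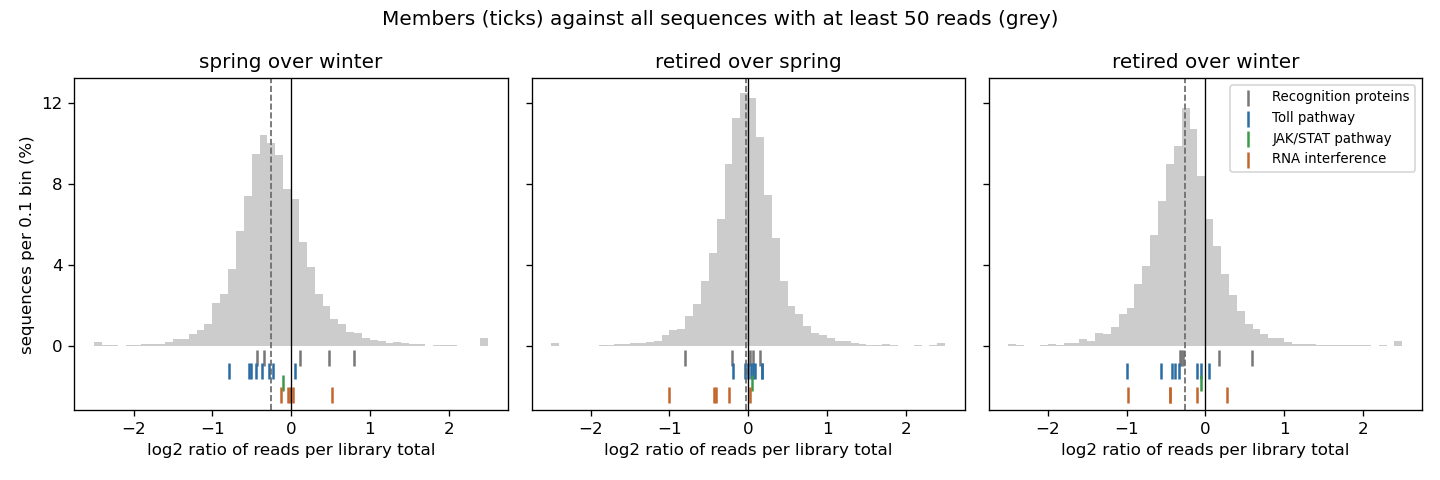
Distribution of log2 ratios of reads per library total over all 12402 sequences with at least 50 reads (grey, in % per bin, values past 2.5 put in the outer bins), with the 19 members as coloured ticks below by role and the median of all sequences as a dashed line. The members spread over the middle of the distribution, with median log2 ratios of -0.12, 0.02 and -0.31 against -0.26, -0.03 and -0.26 for all sequences.

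Ratios of the reads of 2 sequences, or of sums of sequences, within a library do not depend on scaling. Of 6 such pairs, 5 between members and 1 of STAT, which is no member, over hopscotch, all picked with the values in view and so a description, dorsal over cactus was 4.83 reads per read in the winter library (4.10 to 5.71), 3.33 in the spring (2.75 to 4.05) and 2.94 in the retired library (2.43 to 3.58). Here dorsal is the sum of the 4 Dl sequences, and cactus is the sum of 2 sequences that match different proteins. Relative to the summed cactus reads, dorsal was thus 0.689 of its winter value in the spring (Woolf interval 0.537 to 0.884). In the retired library it was 0.609 of that value (0.475 to 0.782). Isoform B over isoform A of dorsal was 0.673, 0.561 and 0.502, and the interval of its change excluded 1 in retired over winter (0.746, 0.583 to 0.954) but not in spring over winter (0.659 to 1.06).

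The argonaute sequence NP9543926 over TC15637 was 0.238 in winter bees, 0.262 in spring bees and 0.129 in retired bees. In retired bees it was 0.491 of its spring value (0.363 to 0.662). The Dicer-1 to Dicer-like ratio was 0.776, 0.786 and 0.775 in the winter, spring and retired library, so this pair differed by less than counting error between libraries. PGRP-SA over PGRP-LC was 0.295, 0.656 and 0.556, with a change of 2.23 in spring over winter (1.25 to 3.95).

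**Figure D4:**
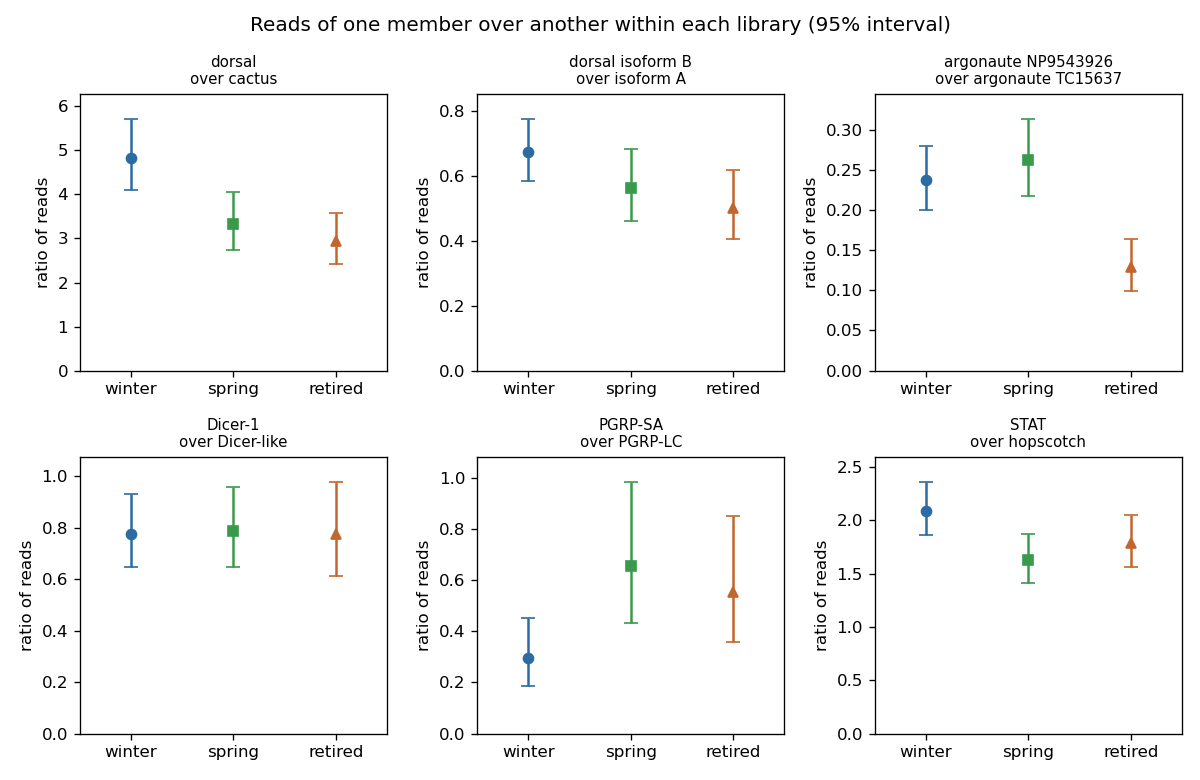
Reads of 1 sequence, or of several summed, divided by those of another within each library, with exact 95% intervals. There are 5 pairs of members, and STAT, which is no member, over hopscotch. Dorsal is the sum of the Dl sequences, and cactus is the sum of 2 sequences that match different proteins. The vertical axes start at 0. Dorsal over cactus is highest in the winter library at 4.83, the ratio of the argonaute sequences is lowest in the retired library at 0.129, and the Dicer pair stays between 0.775 and 0.786.

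Further genes of the same pathways were listed by name. Of 12 other Toll pathway sequences 7 had at least 50 reads, and in spring over winter 1 interval lay above and 2 below 1, against 7.18% and 33.4% of all sequences. TRAF6 (TC14930), an adaptor whose fly relatives act below Toll-type receptors, stood at 1.95, 5.42 and 3.40 RPKM (winter, spring, retired) and was 2.78-fold higher in the spring than in the winter library (1.51 to 5.34) on 38 against 16 reads. TRAF4-like (TC18177) stood at 10.4, 3.69 and 5.82 RPKM, with a ratio of 0.356 in spring over winter (0.208 to 0.588). The most read was toll-interacting protein (TC12699) at 67.7, 63.7 and 67.9 RPKM. Pellino (TC14025), which in flies binds the kinase Pelle, stood at 37.1, 27.7 and 27.6 RPKM, with a ratio of 0.747 in spring over winter (0.624 to 0.891). Another pellino-like sequence (DB729489), picked after its values were seen, stood at 39.0, 34.7 and 37.8 RPKM. Its ratio in spring over winter was 0.889 (0.619 to 1.27), and its other intervals also included 1. Pelle itself (NP9545760), the kinase between Toll and Cactus, stood at 19.0, 18.1 and 13.4 RPKM, and its intervals included 1.

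None of the 3 other Imd pathway sequences with at least 50 reads had an interval away from 1 in any comparison. They were akirin-2 (TC15500), a nuclear cofactor, at 74.1, 64.0 and 72.4 RPKM, MAP3K7 (NP9544860), the TAK1 kinase, at 25.4, 23.4 and 21.8 RPKM, and a TAK1-binding protein match (TC15296) at 21.4, 24.8 and 22.5 RPKM. The word relish was in no match, but 3 sequences were matched as NF-kappa-B p105 or p100 subunits, the vertebrate proteins that Relish resembles. They were picked after their values were seen. The most read (TC23889) stood at 44.7, 46.2 and 35.8 RPKM (winter, spring, retired), with a ratio of 0.775 in retired over spring (0.655 to 0.915). A smaller sequence of the same match (TC18699) had 39, 33 and 10 reads.

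Among other JAK/STAT genes all 4 sequences with at least 50 reads had intervals below 1 in spring over winter, where 33.4% of all sequences had. Both counts are scaled to library totals. Scaled to a median ratio of 1, the share of all sequences was 13.2%, and the 4 were not counted under that scaling, so 13.2% is no background for them. Of the 4, 2 match the same STAT protein. The median log2 ratio of the 4 was -0.41, against -0.26 for all sequences. The most read, signal transducing adapter molecule 1 (TC13870), stood at 88.4, 80.4 and 82.3 RPKM, with a ratio of 0.909 (0.828 to 0.997), nearer to 1 than the median of all sequences. The STAT factor (TC16532, matched as STAT5B), of the family that Hopscotch acts on in flies, stood at 81.5, 59.1 and 67.1 RPKM (winter, spring, retired) and was at 0.725 of its winter level in the spring (0.650 to 0.809). Suppressor of cytokine signalling 7 (NP9546093), named for holding back such pathways, stood at 27.9, 21.7 and 19.6 RPKM, with a ratio of 0.777 (0.637 to 0.946). STAT over hopscotch, also among the 6 pairs, was 2.09, 1.63 and 1.79, with a change of 0.778 in spring over winter (0.649 to 0.932).

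Of 10 other small RNA sequences, all with at least 50 reads, 2 had intervals above 1 and 1 below in spring over winter, against 7.18% and 33.4% of all sequences. In retired over spring 0 lay above and 3 below, against 8.26% and 10.4%. Tudor staphylococcal nuclease (TC13286), a protein found in RNA-cutting complexes, stood at 120.2, 324 and 201 RPKM and was 2.70-fold higher in the spring than in the winter library (2.54 to 2.87). Serrate (TC15655), a cofactor of microRNA processing, stood at 35.5, 33.6 and 34.0 RPKM, and its intervals included 1. A fragile X-related protein match (NP9547199), an RNA-binding protein, stood at 33.8, 28.7 and 24.6 RPKM, with a ratio of 0.729 in retired over winter (0.596 to 0.890). The next 3 were picked after their values were seen. The TARBP2-like loading partner of Dicer (TC20560) stood at 34.5, 23.0 and 18.4 RPKM, with a ratio of 0.534 in retired over winter (0.410 to 0.692). Drosha, matched as ribonuclease 3 (NP9553616), which starts microRNA processing, stood at 14.1, 15.8 and 10.8 RPKM, with a ratio of 0.683 in retired over spring (0.543 to 0.857). Exportin-5 (NP9553063), which carries microRNA precursors out of the nucleus, stood at 13.9, 18.2 and 13.6 RPKM, with 0.747 in the same comparison (0.605 to 0.920). The list also took in an ERI1-like exoribonuclease and an FMR-interacting protein by name; without them, an exclusion added after the data were seen, 2 of 8 lay above and 1 below in spring over winter, and 0 and 3 in retired over spring.

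Genes for the uptake of microbes and other surface receptors numbered 29 with at least 50 reads, of which 1 had an interval above 1 and 11 below in spring over winter. Over all sequences 7.18% lay above and 33.4% below, so the share below is near the background. Dscam (TC12289), a highly variable surface protein of neurons and blood cells, stood at 85.2, 54.0 and 52.8 RPKM and was at 0.633 of its winter level in the spring (0.591 to 0.678). In retired over spring its ratio was 0.979 (0.904 to 1.06). Another sequence matched as a Dscam homolog (NP9550940), picked after its values were seen, stood at 17.5, 11.5 and 21.3 RPKM. It was 1.85-fold higher in the retired than in the spring library (1.38 to 2.49). A scavenger receptor class B match (TC17024) had 65 winter, 13 spring and 10 retired reads, which is 0.234 of its winter level in the spring (0.118 to 0.429). Croquemort (TC18826), a receptor that in flies takes up dead cells, stood at 70.9, 68.3 and 50.2 RPKM, with a ratio of 0.734 in retired over spring (0.652 to 0.827). A more abundant scavenger receptor class B match (TC13072) stood at 132.9, 91.0 and 152.7 RPKM, lowest in spring bees. Thioesterases came into the list by their name; without them, an exclusion added after the data were seen, 0 of 23 intervals lay above and 11 below. A Gram-negative bacteria-binding protein match (TC12706, symbol B-gluc1), picked after its value was seen, stood at 62.0, 46.5 and 56.9 RPKM. Its interval lay below 1 in spring over winter and above 1 in retired over spring.

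Antimicrobial peptides, a class of products that Toll and Imd switch on in flies, did not share 1 order across libraries. Whether the levels of those named here follow either pathway was not tested. Defensin-1 (TC23147) stood at 4289 RPKM in winter bees, 2284 in spring bees and 5889 in retired bees, and abaecin (TC23893) had 76, 23 and 100 reads. Both were lowest in the spring library. Hymenoptaecin (TC12701) had 8, 45 and 39 reads and was lowest in the winter library. Lysozymes, which cut bacterial walls, differed too, with 20.7, 59.3 and 31.3 RPKM for a lysozyme c-1 match (TC20941) and 67.9, 80.1 and 59.9 RPKM for the most read lysozyme (TC17213).

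Summed reads of hemocyte, fat body and neuron markers were highest in the winter library, as were those of dorsal. Over 8 hemocyte marker sequences the sum in RPM was 585 in winter bees, 396 in spring bees and 412 in retired bees, and in spring over winter 4 of 5 intervals lay below 1, against 33.4% of all sequences. Hemocytin and nimrod C2, of blood cells, were read in all libraries, and 1 minor peroxidasin-like sequence had 0 winter reads. Peroxidasin (NP9553846) gave 1139 of the 2251 winter and 852 of the 1308 retired hemocyte reads. In retired over spring 1 of 5 hemocyte intervals lay above 1 and 1 below, against 8.26% and 10.4% of all sequences. Peroxidasin had a ratio of 1.28 there (1.16 to 1.42) and hemocytin (TC15331) 0.623 (0.521 to 0.743). Hemocytin stood at 12.2, 8.32 and 5.18 RPKM in winter, spring and retired bees. The near-equal spring and retired sums thus hold opposite differences. Over 21 fat body sequences the sums were 5081, 3412 and 3400, with 6 of 14 intervals below 1 and 1 above in spring over winter. Transferrin 1 (TC12326) gave 10101 of the 19551 winter fat body reads. Over 36 neuron sequences the sums were 3532, 2820 and 2828, with 13 of 26 intervals below 1 in the same comparison. Median log2 ratios in spring over winter were -0.50 for hemocyte, -0.18 for fat body and -0.31 for neuron markers, against -0.26 for all sequences. The 2 main dorsal sequences had -0.53 (isoform A) and -0.79 (isoform B). Fat body and neuron sequences at 0 in a library were minor ones, with at most 6 reads elsewhere. In winter bees they were an apolipophorin-III-like and a syntaxin-1B-like match, and in spring bees a hexamerin match. In retired bees they were the same apolipophorin-III-like and syntaxin-1B-like matches, a vitellogenin-2-like and a transferrin 1 match. Other marker groups also held sequences at 0, such as an alpha-amylase match (DB772014) with 2 winter, 0 spring and 22 retired reads. Photoreceptor sums were 931, 767 and 1084 and muscle sums 2499, 1737 and 2523, lowest in spring bees. Summed gland products were lowest in the winter library, with 99751 in winter bees, 223745 in spring bees and 234837 in retired bees. Single products differed from the sum: an alpha-glucosidase match (TC20807) had 68385 winter, 7282 spring and 111674 retired reads. In retired over spring 20 of 39 gland product intervals lay below 1 and 11 above, against 10.4% and 8.26% of all sequences. The part of these markers in the dorsal, Sog and toll-like receptor 13-like differences was not tested.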

How the data were processed

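Polyadenylated RNA of 3 libraries, 1 per group, was sequenced on an Illumina HiSeq instrument, per the labels' protocols. The authors deposited 1 table per library with, per the file headers, the count of uniquely mapped reads per transcript sequence, the RPKM, the covered fraction of its length (coverage) and the best protein match. The sources used here name no aligner, counter or release of the sequence set. The deposited RPKM equal the deposited counts per length and library total. Unlisted sequences were taken as 0, and 3 reads served as the limit that 0 reads allow.

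Ratios are reads per library total with exact conditional binomial (Clopper-Pearson) 95% intervals. Pair ratios across libraries have Woolf intervals, and shares Wilson intervals. Log2 ratios and 2-fold counts add 0.5 reads to each value, over sequences with at least 50 reads summed over the 3 libraries. With 1 library a group no count model could be fitted. Symbols came from a RefSeq gene table of assembly Amel_HAv3.1, used for names only, which held 20 of 29 members. All members were accounted for: those with at least 50 reads are named with levels, others by reads or range. Of each pathway list up to 3 sequences with the most reads and those past 2-fold are named, and others only where the text says so. Members and lists were chosen with earlier results of these data known. Alternatives were 3 scalings (median ratio of 1, totals without royal jelly matches and the 50 most abundant sequences, TPM), minimums of 20 and 150 reads, 10 RPKM or none, pseudocounts of 1 and 5 RPKM, reads summed per protein and a 4-fold threshold. The counting scripts were tested on simulated data. Intervals came from scipy 1.17.1, tables from pandas 2.3.3 and numpy 2.4.6 under Python 3.11.15, and plots from matplotlib 3.10.9.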

Additional observations from a re-analysis of the deposited data

How the results depend on the processing

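Counts past 2-fold were small and moved with most settings. In spring over winter, 0 members became 1 (PGRP-SA, higher) under scaling to a median ratio of 1 and under totals without royal jelly matches and the 50 most abundant sequences. It was 1 with a minimum of 20 reads (TC17095, lower) and 6 with no minimum, since sequences of a few reads then enter. In retired over spring, 1 member (NP9543926, which lies on the threshold) became 0 under both rescalings, under TPM, with pseudocounts of 1 and 5 RPKM and at 4-fold, 3 with a minimum of 20 reads and 7 with none. In retired over winter, 0 became 1 with a minimum of 20 reads, 4 with none and 1 (dorsal isoform B) with reads summed per protein. The rescalings by the median ratio and without abundant sequences raised all log2 ratios by 0.26 and 0.20 in spring over winter and by 0.26 and 0.23 in retired over winter. The median log2 ratio of members in spring over winter accordingly turned to 0.13 and 0.075. In retired over spring it turned from 0.02 to -0.0075 with a minimum of 10 RPKM, with reads summed per protein and, an exclusion added after the data were seen, without the LysM, Sog and ECSIT matches. Counts of intervals without 1, both directions added, stayed within 1.5 times of the main count under every setting run for them. By direction they did not: in retired over winter 0 above and 7 below became 2 and 4 under both rescalings, and in spring over winter 1 and 4 became 2 and 3 under the median ratio. No paired analysis was possible because each group has 1 library. At this depth 1 library per group and at most 139 reads per library for any recognition member limit what could be seen.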

Other observations

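Sequences matched to an RNA-dependent RNA polymerase of a spider entry, 3 in all and picked after their values were seen, had 4 reads in winter bees, 13743 in spring bees and 2 in retired bees. Of the 5 RNA interference members with at least 50 reads, 0 had an interval without 1 in spring over winter, against 7.18% above and 33.4% below over all sequences. A relation between these values was not tested.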
